A study of Mus musculus with 12 samples.

Results

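miR-3960 is a mouse microRNA (miRNA) known from osteoblasts, the cells that build bone. Its single annotated entry, mmu-miR-3960, was followed through vesicle RNA of cultured bone marrow stem cells, as 1 of 1978 annotated mouse miRNA entries, of which 501 had a count in some library. The entry was chosen by its counts in this same table, which an earlier analysis had shown to be high in the group aFM, so its levels and differences between groups are given as a description, without a test. It was 1 of the 132 annotated miRNAs that passed the filter on low counts, and it could pass through aFM alone.

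The study sequenced small RNA of extracellular vesicles, the membrane particles that cells shed into their medium, from mesenchymal stem cells (MSCs) of the bone marrow of SPF-grade C57BL/6 mice. The 12 libraries carry the group names aFM, NY, PLL and DZ, with replicates A, B and C in each. All 12 share the label of an antigen intervention, and the design text describes 48 h with 2 µg/ml of the hydatid preparations ESPs, HCF or pLL. The labels do not say what aFM, NY and DZ stand for, nor which group, if any, went without antigen, and DZ serves below as the common point of comparison only. Neither the age of the mice nor whether replicates were separate cultures or animals is given in the sources used here, so the spread between replicates may be technical. In pooled vesicle RNA, fewer vesicles that carry a miRNA and less of it per vesicle cannot be told apart.

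In mouse osteoblasts miR-3960 and its neighbour miR-2861 are made from one transcript that the bone transcription factor Runx2 switches on. miR-3960 represses Hoxa2, a homeobox protein that holds Runx2 back, and miR-2861 represses Hdac5, a histone deacetylase that promotes Runx2 breakdown. Through both targets the pair favours Runx2 and osteoblast differentiation.

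The gene Mir3960 lies on the minus strand at chr2:32712900-32712972 in GRCm38, and Mir2861 at chr2:32712807-32712888, with 11 bases between their hairpins. Both hairpins fall inside Cdk9, the gene of a kinase that releases paused RNA polymerase II, on the same strand. In the GENCODE annotation 1 of 9 Cdk9 transcripts contains Mir3960, in an exon and a UTR of a transcript marked for nonsense-mediated decay. The hairpin of Mir3960 is 73 bases long and 82.2% G and C, against a median of 51.7% over 1005 mouse hairpins in RefSeq, and 4 of these, itself included, were at or above it. It holds the motif GGCGG 5 times on its own strand, overlaps counted, while 5.37% of the 1005 hairpins hold it at least once and 2 hold it that often. The last 30 bases of the hairpin and the mature miR-2861 are shown because few of these hairpins hold the repeat. Capitals mark GGCGG in the first and bases 2 to 8, the seed that pairs with targets, in the second.
Mir3960 hairpin, 3′ end, chr2:32712900-32712929, minus strand: GGCGGCGGCGGCGGaGGCGGgggcaguggc
miR-2861, chr2:32712819-32712837, minus strand: gGGGCCUGgcggcgggcgg

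Library totals ran from 68647 to 214303 counts, of which annotated miRNAs took 10.3% to 60.7% and predicted loci the rest. The annotated share was 15.4% on average in aFM, 23.7% in NY, 43.9% in PLL and 17.5% in DZ. PLL replicate A stood apart from PLL replicates B and C in several miRNAs, and the PLL values below that it moves most are also given without it. Levels are given in CPM, the counts of a miRNA set against all annotated counts of its library and scaled by TMM factors. The 6 mesenchymal markers miR-143-3p, miR-145a-5p, miR-199a-3p, miR-199a-5p, miR-214-3p and miR-140-3p all had counts in some library. Together they reached 79560 to 95241 CPM in aFM, 94232 to 100245 in NY, 50619 to 154991 in PLL (at most 58331 without replicate A) and 87000 to 102456 in DZ. Most of the aFM sum was miR-143-3p, which alone held 68018 to 82645 CPM, while miR-145a-5p held 0 in aFM replicates B and C. In PLL replicate A miR-140-3p alone held 101387 CPM.

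miR-3960 was read 123, 116 and 130 times in aFM replicates A, B and C and 19, 25 and 20 times in NY. In PLL it was read 0, 8 and 9 times, and in DZ 7, 5 and 2 times. Each aFM library held more reads of it than the 9 other libraries together, although aFM had fewer annotated counts (79062) than NY (93487) or PLL (124403). As levels these were 5270, 4333 and 3991 CPM in aFM and 640, 788 and 676 CPM in NY. The PLL libraries held 0, 204 and 291 CPM, and the DZ libraries 434, 289 and 77.0 CPM. The lowest aFM library stood 5.06 times above the highest library outside aFM, NY replicate B.

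The mean level was 4531 ± 662 CPM in aFM, 701 ± 77.4 in NY, 165 ± 149 in PLL and 267 ± 179 in DZ (SD, n = 3 each). Without PLL replicate A the PLL mean was 248 CPM, and without PLL replicate C it was 102 CPM. Replicates were close in aFM, with a coefficient of variation of 14.6%, and in NY, and far apart in PLL and DZ, with 90.5% and 67.3%. Counting alone would give 9.02% in aFM, 21.7% in NY, 42.0% in PLL and 46.3% in DZ at their mean read numbers. The NY libraries thus lay closer together than counting error, and the SD of NY may understate the uncertainty of its level. Ordered by its mean, miR-3960 was the 35th most abundant annotated miRNA in aFM, the 81st in NY, the 152nd in PLL and the 122nd in DZ. It took 0.471% ± 0.0572 of annotated counts in aFM and 0.0684% ± 0.00456 in NY (SD, n = 3 each). In PLL it took 0.0180% ± 0.0162 and in DZ 0.0249% ± 0.0154 (SD, n = 3 each).

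**Figure D1:**
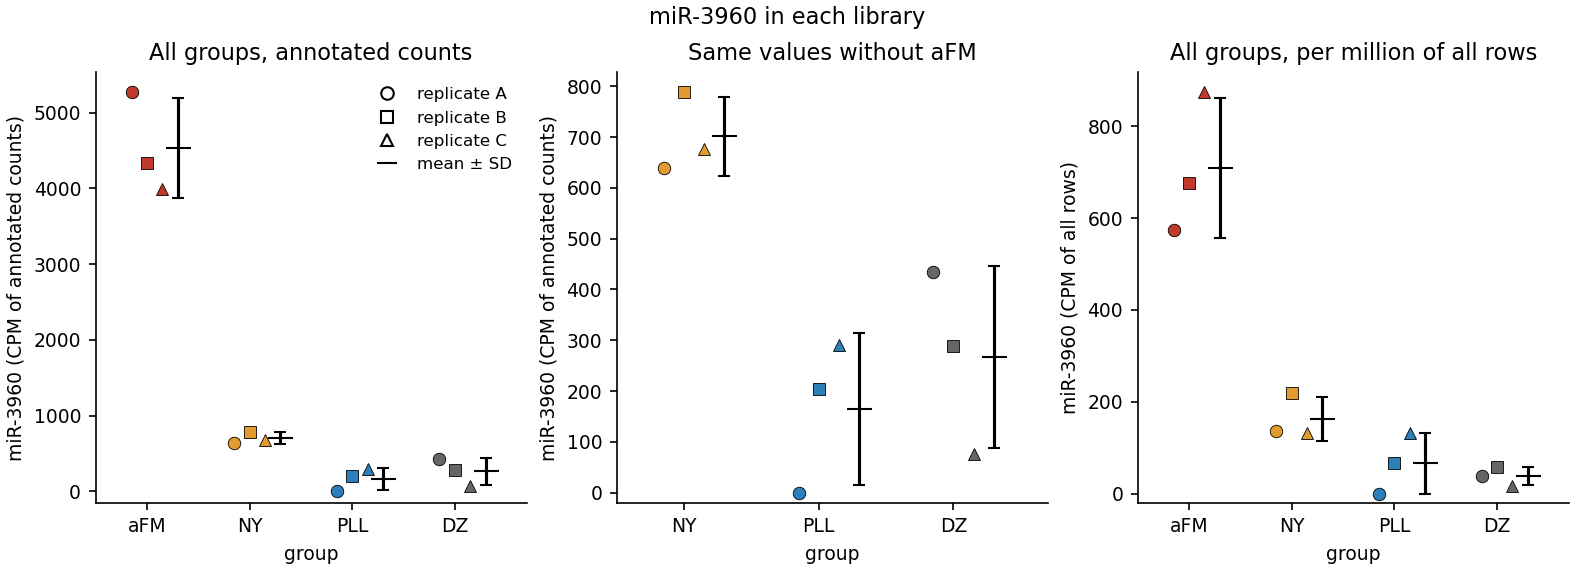
Level of miR-3960 in each library by group, as CPM of annotated counts scaled by TMM (left, and centre without aFM) and as CPM of all rows, predicted loci included (right); points are libraries, shaped by replicate, and bars give mean ± SD of 3 libraries. The 3 aFM libraries sit between 3991 and 5270 CPM of annotated counts, above the 9 others, and PLL and DZ overlap on both scales.

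The libraries without many reads can be placed only roughly. PLL replicate A had the most annotated counts of the 12 (60436) and no read of miR-3960, which allows up to 61.0 CPM (95% Clopper-Pearson interval, before TMM scaling). The same interval was 144 to 597 in PLL replicate C and 97.6 to 446 in PLL replicate B, so replicate A lay below both beyond counting error. In DZ the intervals were 154 to 788, 92.2 to 663 and 9.78 to 292 in replicates A, B and C, which all overlap. The aFM intervals, 4465 to 6404, 3610 to 5236 and 3671 to 5213, lay above every other, the next highest upper bound being 1093 in NY replicate C. These intervals and floors hold counting error alone, because reads with no molecular identifier may be copies of one molecule.

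By library values the order of the levels was aFM, NY and then PLL and DZ. aFM and NY, next to each other in that order, did not overlap, with 3991 CPM as the lowest aFM and 788 CPM as the highest NY value. NY and DZ did not overlap either, with 640 CPM as the lowest NY and 434 CPM as the highest DZ value. Their log2 difference was 1.47 ± 0.75 (SE), and 0.90 without DZ replicate C. The counting interval of NY replicate A, 380 to 985, overlapped those of DZ replicates A and B and of PLL replicates B and C. Single libraries of NY, DZ and PLL were thus not all apart beyond counting error. PLL and DZ overlapped and could not be ordered. Groups without overlap were common over all tested miRNAs. The libraries of aFM and DZ did not overlap in 34.1% of them, with aFM higher in 18.2%, and those of aFM and NY in 43.9%, with aFM higher in 19.7%. The shares were 38.6% and 17.4% for aFM and PLL, 15.9% and 9.85% for NY and DZ, 31.8% and 15.2% for NY and PLL, and 21.2% and 10.6% for PLL and DZ.

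Between groups the log2 fold change of miR-3960 was 4.15 ± 0.74 (SE) in aFM against DZ, or 17.8-fold. It was 2.68 ± 0.65 in aFM against NY and 4.81 ± 0.74 in aFM against PLL, or 6.42-fold and 28.0-fold. NY stood 2.13 ± 0.73 above PLL, a value that was 1.49 without PLL replicate A, 2.83 without PLL replicate C and 1.10 in the fit over all rows described below. Among the aFM comparisons, those that moved by more than 1.5 times in fold with a library left out were aFM against DZ, at 4.74 without DZ replicate A, and aFM against PLL, at 5.59 without PLL replicate C. PLL against DZ gave -0.66 ± 0.83, within its error, and was -0.059 without PLL replicate A, -1.41 without PLL replicate C and -1.27 without DZ replicate C. These fits share libraries, so the 6 values are not separate evidence. Among the 132 miRNAs tested, the fold change of miR-3960 was the 4th highest in aFM against DZ, the 5th in aFM against NY and the 2nd in aFM against PLL. It was the 7th highest in NY against DZ and the 103rd in PLL against DZ.

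**Figure D2:**
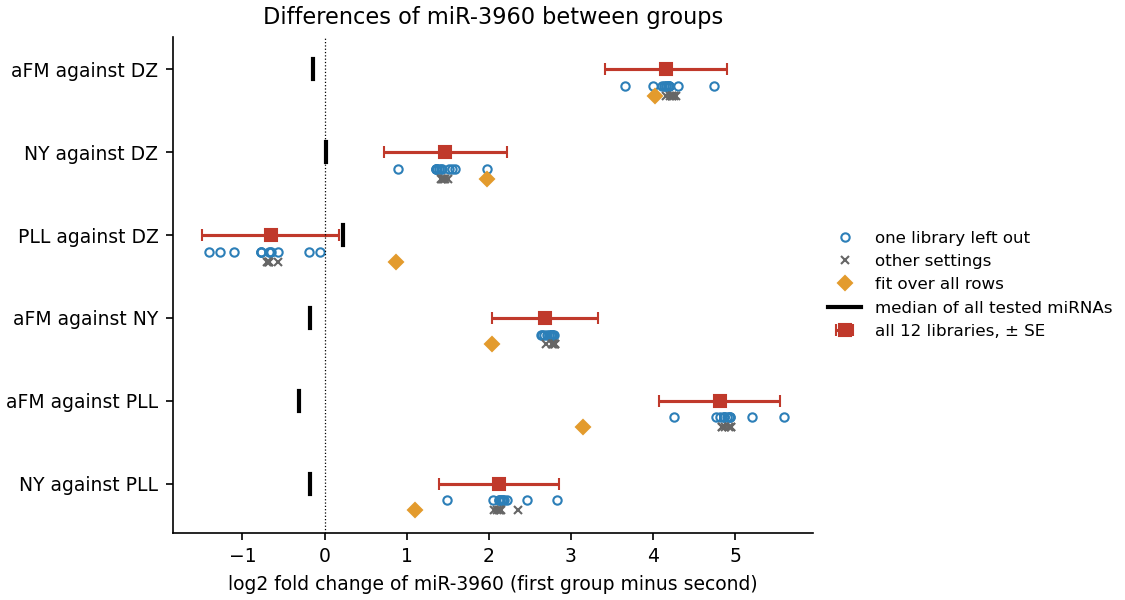
Log2 fold change of miR-3960 for the 6 pairs of groups (first group minus second), as red squares ± SE from the fit of all 12 libraries; open circles leave out 1 library each, crosses are other settings, diamonds the fit over all rows and black ticks the median of the 132 tested miRNAs. The 3 aFM comparisons stay above 2 on the log2 scale under every setting, and PLL against DZ changes sign, to 0.87, in the fit over all rows.

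The denominator mattered for PLL. As CPM of all rows, predicted loci included, miR-3960 stood at 708 ± 152 in aFM, 162 ± 48.4 in NY, 65.7 ± 65.6 in PLL and 38.4 ± 20.5 in DZ (SD, n = 3 each). aFM replicates A, B and C held 574, 676 and 874 on that scale and again lay above all others, the next being NY replicate B at 218. The lowest NY library held 132 and the highest PLL library 131, so these 2 groups nearly met, whereas PLL (0 to 131) and DZ (17.4 to 58.3) overlapped with their means in the opposite order. In the fit over all rows the log2 fold changes were 4.02 in aFM against DZ, 2.04 in aFM against NY and 3.15 in aFM against PLL. NY against DZ was 1.98 there, NY against PLL 1.10 and PLL against DZ 0.87. That scaling moved the median annotated miRNA to 1.73 in PLL against DZ and to -2.13 in aFM against PLL. Relative to that median, miR-3960 stood at -0.86 in PLL against DZ, close to the -0.88 of the fit on annotated rows, and at 5.28 in aFM against PLL, where the fit on annotated rows gave 5.12.

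Having all 3 aFM libraries above the 9 others was shared by 9 of 132 tested miRNAs, or 6.82%. The filter on low counts could admit such miRNAs through aFM alone, as it did miR-411-5p and miR-5099. The share is therefore a description, and nothing is read from it. Ranked by the ratio of the lowest aFM to the highest other library, miR-3960 (5.06) came after miR-411-5p (5.45) and before miR-5099 (2.12), miR-126a-3p (2.01), miR-381-3p (1.98) and miR-409-3p (1.64). miR-151-3p, miR-365-1-5p and miR-10a-5p completed the 9, with ratios of 1.38, 1.36 and 1.29.

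The partner miR-2861 was at the limit of detection. It had 1 read in aFM replicate A, 1 in aFM replicate B and 0 in aFM replicate C, and 0 in all NY, PLL and DZ libraries. Both of its reads thus fell in the group with the most miR-3960, at 0.542 reads of miR-2861 per 100 of miR-3960. A count of 0 allows up to 3 counts, or 33.0 CPM over the NY libraries together, 26.4 over PLL and 50.5 over DZ, against a mean of 26.7 CPM in aFM. An exact two-sided permutation test of aFM against DZ gave p = 0.4 (adjusted p = 0.667 over 5 comparisons). The same p came out for aFM against NY and aFM against PLL. With 3 against 3 such a test cannot go below 0.1. With reads in aFM replicates A and B alone it could not go below 0.4, so nothing is read from it. At this depth a difference in miR-2861 was not detectable.

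The surroundings of the locus held few other miRNAs with reads. Within 1 Mb of Mir3960 the hairpins Mir199b, Mir1954, Mir8093 and one that gives miR-3154 are annotated, and miR-1954, miR-8093 and miR-3154 had no read in any library. miR-199b-3p, a mesenchymal miRNA of the same sequence family as miR-199a-3p, held 6084, 4370 and 3807 CPM in aFM. It held 6803, 4666 and 5609 CPM in NY, 19647, 5792 and 4622 CPM in PLL and 5451, 5203 and 4311 CPM in DZ. The aFM and DZ libraries overlapped, and the log2 fold change of -0.07 ± 0.47 did not pass (edgeR adjusted p = 0.989). Its counts equalled those of miR-199a-3p, whose reads cannot be told from its own. Its other arm miR-199b-5p had 1 to 9 reads in 11 libraries and 146 in PLL replicate A, the library with no miR-3960.

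The miRNAs whose levels ran most like that of miR-3960 were found by Pearson correlation of log2 CPM over the 12 libraries, as a description over libraries that fall into 4 groups. They were miR-411-5p (r = 0.89), miR-378a-3p (0.75), miR-128-3p (0.74), miR-151-3p (0.72) and miR-5099 (0.71). miR-411-5p belongs to the imprinted Dlk1-Dio3 cluster, and miR-378a-3p lies in the metabolic coactivator gene Ppargc1b. The mature sequences of the first and the third are shown, seeds in capitals, for comparison with the GC-rich locus of miR-3960.
miR-411-5p, chr12:109710190-109710210, plus strand: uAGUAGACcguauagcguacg
miR-128-3p, chr1:128202404-128202424, plus strand: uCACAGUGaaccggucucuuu
Each is 47.6% G and C, neither holds GGCGG, and their seeds differ from each other and from that of miR-2861.

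miR-411-5p held 1285, 1121 and 553 CPM in aFM, 101, 94.6 and 101 CPM in NY, 0, 76.6 and 0 CPM in PLL and 0, 0 and 38.5 CPM in DZ. Its aFM libraries lay above all others, on 78 reads in aFM, 9 in NY, 3 in PLL and 1 in DZ. With so few reads elsewhere, miR-411-5p passed the filter on low counts through its aFM libraries. miR-5099 held 1757, 1083 and 1259 CPM in aFM, against 61.9, 347 and 77.0 CPM in DZ, and its NY (126 to 473) and PLL (64.6 to 510) libraries overlapped those of DZ.
miR-378a-3p, miR-128-3p and miR-151-3p varied much less. miR-378a-3p held 1157 to 1942 CPM in aFM and 347 to 743 in DZ, miR-128-3p 3063 to 4541 in aFM and 1850 to 2849 in DZ, and miR-151-3p 5925 to 6499 in aFM and 2717 to 3965 in DZ. The order of likeness rested on PLL replicate A. Without it miR-99a-5p had the highest r (r = 0.96, beside -0.0047 over all 12), miR-411-5p followed (0.91), and miR-378a-3p (0.74) was in 9th place. Once group means were taken out, r was 0.04 for miR-411-5p and 0.52 for miR-378a-3p.

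**Figure D3:**
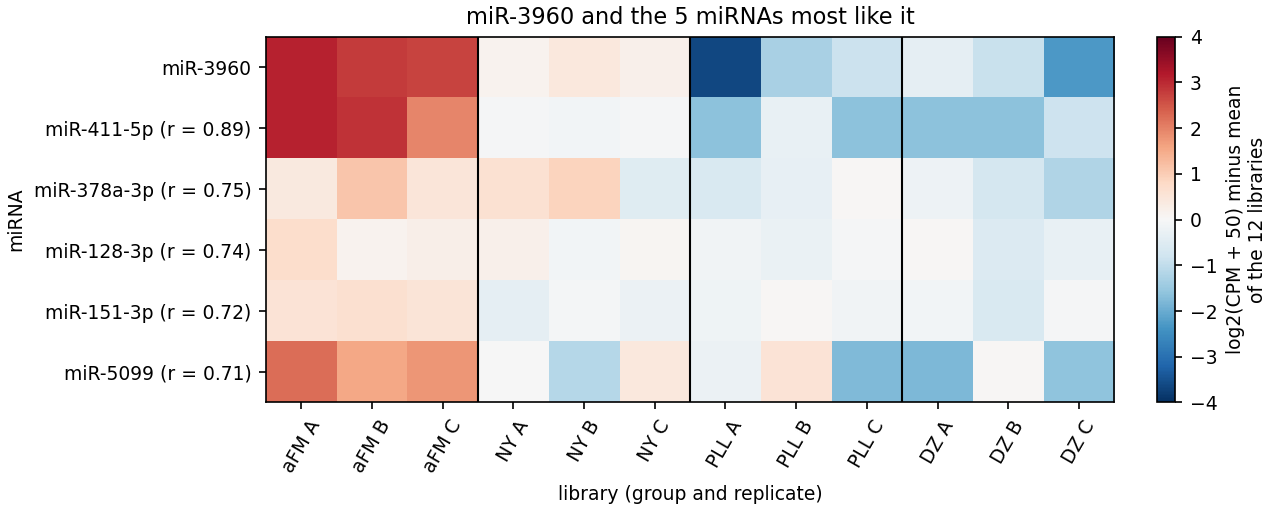
miR-3960 and the 5 tested miRNAs with the highest Pearson r to it (rows) in the 12 libraries (columns, grouped as aFM, NY, PLL and DZ); colour gives log2(CPM + 50) minus the mean of the row. miR-411-5p and miR-5099 are high in all 3 aFM libraries as miR-3960 is, while miR-378a-3p, miR-128-3p and miR-151-3p span a narrower range.

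Since the locus is rich in G and C, the other GC-rich miRNAs were examined next. Of the 132 tested miRNAs, 109 had a mature sequence in RefSeq, and 3 of these had at least 70% G and C. They were miR-6538, miR-5126 and miR-1895, all late miRBase entries, and the first and second also hold GGCGG. Their sequences are given, with the seeds in capitals, because they are the tested miRNAs closest to the Mir3960 hairpin in composition.
miR-6538, chr12:26414970-26414988, minus strand: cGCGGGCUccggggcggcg
miR-5126, chr1:84695890-84695911, plus strand: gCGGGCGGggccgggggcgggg
miR-1895, chr3:134240515-134240536, minus strand: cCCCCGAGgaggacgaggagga

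None of the 3 passed the test in aFM against DZ, where 18.9% of all tested miRNAs did, and their median log2 fold change was -0.14, as over all tested (-0.14). miR-6538 held 557, 374 and 430 CPM in aFM, 1953, 914 and 1520 in NY, 1081, 3623 and 2036 in PLL and 3655, 347 and 654 in DZ. It was lowest on average in the group where miR-3960 was highest, but the DZ libraries spread widely, and neither aFM against DZ (-1.75 ± 0.77, edgeR adjusted p = 0.14) nor aFM against NY (-1.69 ± 0.76, adjusted p = 0.168) passed. miR-5126 held 2356, 1643 and 829 CPM in aFM, 1751, 977 and 1284 in NY, 1794, 4287 and 2230 in PLL and 4708, 231 and 462 in DZ. Its aFM libraries overlapped those of each other group. DZ replicate A and PLL replicate B were the 2 highest libraries of both miR-6538 and miR-5126. They were not the highest of miR-3960 outside aFM, though DZ replicate A was its highest library in DZ. Over the 12 libraries r with miR-3960 was -0.42 for miR-6538 and 0.06 for miR-5126. Once group means were taken out, r was 0.52 and 0.44.

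miR-1895 held 386, 187 and 92.1 CPM in aFM, 33.7, 0 and 67.6 in NY, 828, 1301 and 840 in PLL and 248, 116 and 192 in DZ. It passed the filter on low counts through its PLL libraries. Its log2 fold change in aFM against PLL was -2.19 ± 0.59 (edgeR adjusted p = 0.034), where 9.09% of tested miRNAs passed. Because its PLL libraries admitted it, nothing is read from that call. The call was lost in 14 of 19 alternatives (adjusted p from 0.000443 to 0.184), among them leaving out any library of aFM or PLL and replicates A and C of NY and of DZ. Across the 109 miRNAs with a sequence, the GC share and the log2 fold change in aFM against DZ had r = -0.11, a weak relation over miRNAs that are not independent. miR-3960 had no mature entry in that table and is not among the 109.

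**Figure D4:**
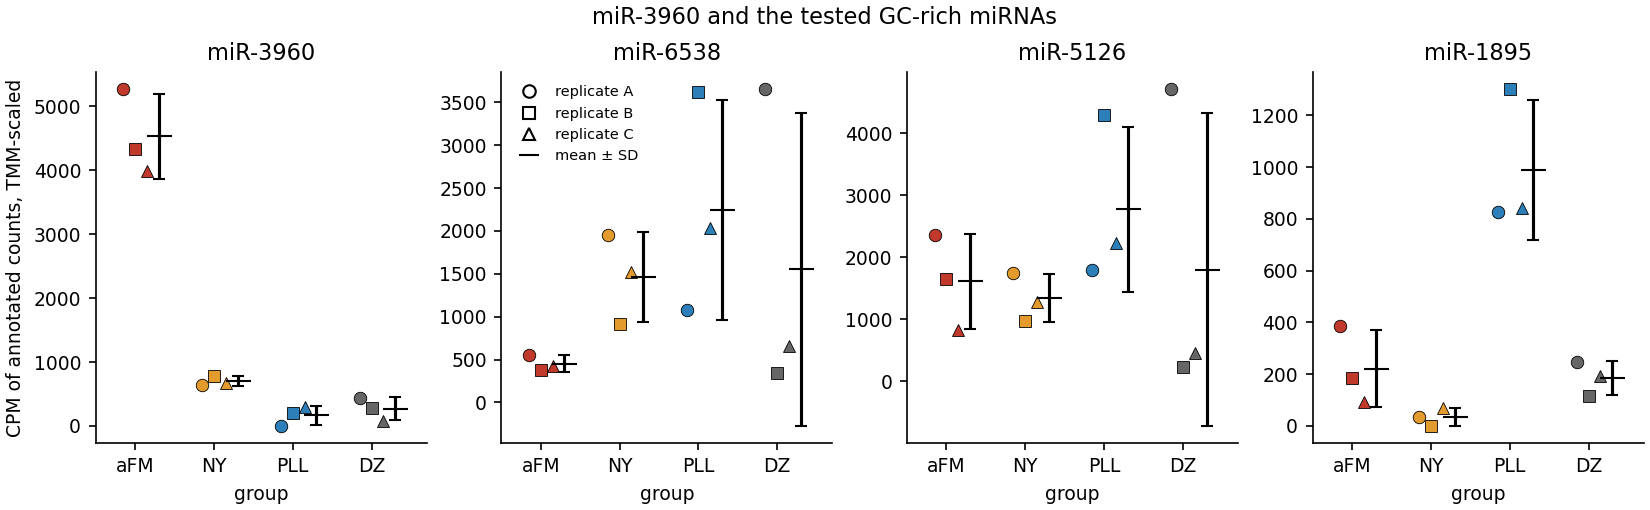
CPM of annotated counts of miR-3960 and of the 3 tested miRNAs with at least 70% G and C, by group; points are libraries, shaped by replicate, and bars give mean ± SD of 3 libraries. miR-3960 is highest in aFM, and miR-6538, miR-5126 and miR-1895 are highest on average in PLL. DZ replicate A holds 3655 CPM of miR-6538 and 4708 CPM of miR-5126.

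The miRNAs listed as favouring bone formation were counted next. Of 17 miRNAs listed as favouring osteogenesis, 16 had counts and 8 were tested. In aFM against DZ, 0 of 8 were higher and 2 were lower, where 9.09% of all tested miRNAs were higher and 9.85% lower, and their median log2 fold change was -0.27 beside -0.14 over all tested. The same list had 0 higher and 1 lower in aFM against NY (3.03% and 0.758% of all tested) and 0 and 1 in aFM against PLL (3.03% and 6.06%). Without PLL replicate A, 1 was lower in aFM against DZ, 1 in aFM against NY and 0 in aFM against PLL. None of the 8 passed in NY against DZ or PLL against DZ, where 0.758% and 3.79% of all tested did. With 8 tested, a count of 0 higher lies near the shares over all tested, so nothing is read from it.

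miR-210-3p, induced by hypoxia and reported to promote osteoblast differentiation, held 0, 112 and 61.4 CPM in aFM and 557, 347 and 308 CPM in DZ. The aFM libraries lay below all DZ libraries, on 5 against 23 reads, and the log2 fold change was -2.65 ± 0.79 (edgeR adjusted p = 0.0415). It was also lower than in PLL, which held 460, 612 and 323 CPM (-2.88 ± 0.75, edgeR adjusted p = 0.0317). The first call was lost in 16 of 18 alternatives and the second in 11. The first was lost without any single one of the 12 libraries (adjusted p up to 0.127). The second was lost when any library of aFM or PLL, or DZ replicate A or DZ replicate C, was left out (adjusted p up to 0.14).

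miR-21a-5p, an abundant miRNA of stromal cells that is reported to favour osteogenesis, held 66836, 79635 and 69534 CPM in aFM. It held 122118, 132229 and 107542 CPM in NY and 88085, 119316 and 116218 CPM in DZ, all above the aFM libraries. The log2 fold change was -0.58 ± 0.16 in aFM against DZ (edgeR adjusted p = 0.0415) and -0.74 ± 0.16 in aFM against NY (edgeR adjusted p = 0.027). Of 19 alternatives the first call was lost in 16 and the second in 14. Left-out libraries made 9 and 8 of these losses, and other settings the rest. Both calls were lost when any library of aFM or NY was left out. The first was lost also on omitting PLL replicate C, DZ replicate B or DZ replicate C, at an adjusted p of up to 0.141. The second was lost also on omitting PLL replicate B or PLL replicate C, at up to 0.216. miR-29a-3p, miR-26a-5p, miR-181a-5p, miR-148b-3p, miR-196a-5p and let-7f-5p passed in no comparison, and their log2 fold changes in aFM against DZ ran from -0.68 to 0.34.

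Of 26 miRNAs listed as restraining osteogenesis, most of them through Runx2 or its partners, 23 had counts and 11 were tested. None passed in aFM against DZ, NY against DZ or aFM against NY, where 18.9%, 0.758% and 3.79% of all tested miRNAs did. In aFM against PLL 1 was higher and 2 were lower (3.03% and 6.06% of all tested), with a median log2 fold change of -0.45 beside -0.31 over all tested. In PLL against DZ 0 were higher and 1 was lower (0.758% and 3.03% of all tested). The higher one in aFM against PLL, and the lower one in PLL against DZ, was miR-143-3p, a miRNA of smooth muscle and stromal cells. It held 82645, 68018 and 72973 CPM in aFM, 29402, 44960 and 38142 in PLL and 88456, 81914 and 76029 in DZ, so the PLL libraries lay below both. Its log2 fold change was 0.99 ± 0.17 in aFM against PLL (edgeR adjusted p = 0.00442) and turned to -0.80 in the fit over all rows, and in PLL against DZ it was -1.13 ± 0.17 (edgeR adjusted p = 0.00202) and 0.24 in that fit.

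The 2 lower ones were miR-23a-3p and miR-221-3p. miR-23a-3p, which targets Runx2, held 771, 598 and 491 CPM in aFM and 5406, 1378 and 2069 CPM in PLL, so the highest of these libraries was PLL replicate A. Its log2 fold change of -2.26 ± 0.49 (edgeR adjusted p = 0.014) held without PLL replicate A and was lost on omitting aFM replicate B or aFM replicate C, at an adjusted p of up to 0.0891. miR-221-3p, a repressor of the cell cycle inhibitor p27, held 2142, 1681 and 1873 CPM in aFM and 4808, 3828 and 3879 CPM in PLL, with no overlap. Its log2 fold change was -1.14 ± 0.25 (edgeR adjusted p = 0.014) and was lost on omitting any library of aFM, PLL replicate B or PLL replicate C, at an adjusted p of up to 0.134. In all, 7 of 19 alternatives lost the call of miR-221-3p.

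**Figure D5:**
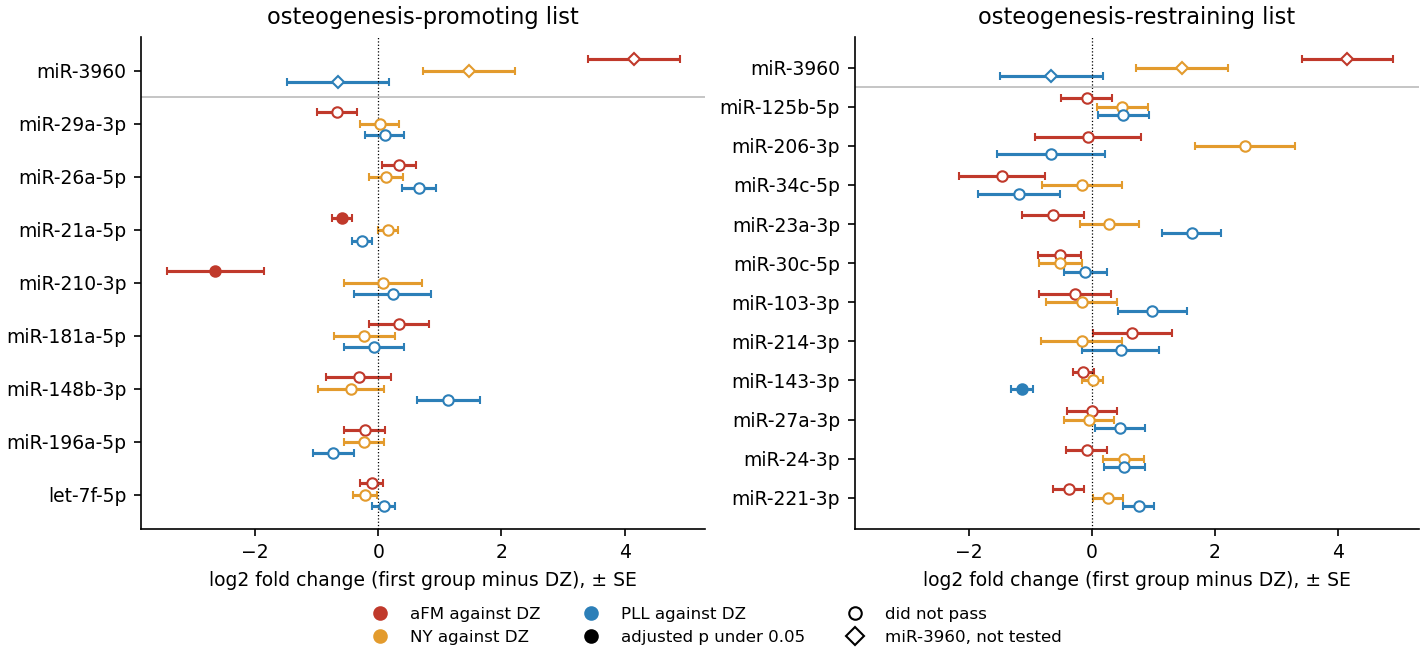
Log2 fold change ± SE against DZ of the tested miRNAs on the osteogenesis-promoting (left) and osteogenesis-restraining (right) lists, in aFM (red), NY (orange) and PLL (blue), with miR-3960 on top as open diamonds; filled circles passed an adjusted p of 0.05. miR-3960 lies at 4.15 in aFM, beyond every list member. miR-21a-5p and miR-210-3p are the members that passed in aFM in the main fit, both below 0, and both calls were lost in most alternatives.

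miR-3960 belongs by its number to the late entries of miRBase, which were counted as a list of their own. Of 1121 other entries numbered 1000 or higher, 107 had counts and 13 were tested. In aFM against DZ 1 was past the threshold as higher and 0 as lower (9.09% and 9.85% of all tested), with a median log2 fold change of -0.56 beside -0.14 over all tested. The 1 was miR-5099, named above for its likeness to miR-3960, which passed the filter on low counts through its aFM libraries, so nothing is read from that call. In aFM against PLL 0 were higher and 1 was lower, miR-1895 (3.03% and 6.06% of all tested). As miR-1895 passed the filter through its PLL libraries, nothing is read from that call either.

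Markers of other cell types were summed in the same libraries. The endothelial pair miR-126a-3p and miR-126a-5p reached 4697 to 5229 CPM together in aFM and 370 to 878 in NY. The pair reached 1725 to 2360 CPM in PLL and 500 to 1445 in DZ, so aFM was highest, as for miR-3960. In aFM nearly all of the sum was miR-126a-3p, which alone held 4666 to 5192 CPM. The neural pair miR-9-5p and miR-124-3p reached 30515 to 36456 CPM in aFM and 7275 to 8345 in NY. The pair reached 86962 to 125803 CPM in PLL and 38.5 to 520 in DZ. Nearly all of it was miR-9-5p, which alone held 30454 to 36232 CPM in aFM and 86962 to 125674 in PLL. The 7 haematopoietic markers held 50286 to 85424 CPM in aFM, 66661 to 135130 in NY, 49716 to 72442 in PLL and 65519 to 143091 in DZ, which overlap. The liver miRNA miR-122-5p held 13723 to 15949 CPM in aFM, 2459 to 3108 in NY, 4006 to 7952 in PLL and 1920 to 38726 in DZ. The 3 muscle markers held 224 to 430 CPM in aFM and 0 to 808 in DZ. They held 1684 to 2522 CPM in NY and 281 to 552 in PLL, so NY was highest. The 6 epithelial markers held 300 to 890 CPM in aFM and 743 to 2023 in DZ. They held 439 to 808 CPM in NY and 549 to 920 in PLL. Every marker on these lists had a count in some library. In aFM against DZ the endothelial miR-126a-3p (2.63) and the neural miR-9-5p (6.76) were higher by the test, 1 tested miRNA in each list. Of the tested markers 2 of 3 haematopoietic ones and 1 of 6 mesenchymal ones were lower there, and none of the single tested epithelial, muscle and liver markers passed. The lower ones were miR-142a-5p (-0.91), miR-486a-5p (-1.07) and miR-145a-5p (-4.03), each at an edgeR adjusted p of 0.0415. miR-145a-5p held 85.7, 0 and 0 CPM in aFM. Over all tested miRNAs 9.09% were higher and 9.85% lower in that comparison. The lower calls there, 13 in the main fit and with DESeq2, were not stable. They numbered 4 with RLE factors, 1 with library totals and 0 without aFM replicate A or B. The part of these markers in the level of miR-3960 was not tested.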

How the data were processed

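The deposited table gives whole-number counts, not normalized, for 1978 annotated mouse miRNAs and 1531 predicted loci in 12 libraries. Per the submitters' processing notes, FastQC, STAR, StringTie and DESeq2 were used, with build mm39. The sources used here do not give the miRNA caller, the miRBase release or the filters on reads. Loci are cited in GRCm38 from RefSeq (GRCm38.p6) and GENCODE M21, matched by name, since the table holds no coordinates for annotated miRNAs.

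Predicted loci name no gene, held 39.3% to 89.7% of a library and stayed out of totals and tests. Annotated counts ran from 17607 to 60436 per library, and a count of 0 allows up to 3 counts, or 69.0 to 186 CPM. Rows were kept by filterByExpr (minimum count 10, minimum total 15), and edgeR 4.0.16 in R 4.3.3 fitted 1 quasi-likelihood model with a term per group to all 12 libraries after TMM scaling. The two-sided p-values were adjusted over 132 miRNAs by Benjamini-Hochberg, with a threshold of 0.05. The SE is the log2 fold change divided by the root of F. Log2 CPM used a prior count of 2. Lists named for bone formation, cell types and late entries, and the members, were chosen with earlier results of these data known. Named beside miR-3960 were its partner, the 5 most like it by Pearson r, tested miRNAs with at least 70% G and C or with GGCGG, neighbours within 1 Mb, and list members that passed. The other miRNAs of the 9 high in aFM, and miR-99a-5p, were named after their values were seen. By chi-square test, all replicate pairs differed by more than sampling noise, and no annotated row shared the counts of miR-3960. The scripts were tested on simulated data. Alternatives were RLE factors, library totals, all rows, no filter, DESeq2 1.42.0, a replicate block, the 2 groups alone and leaving out each library.

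Replicate letters recur in each group, and no label says that they pair libraries. A criterion of r above 0.1 for each letter, on deviations from group means, was met in NY and DZ alone (0.13 to 0.34). In aFM and DZ r was 0.23, 0.06 and 0.17 for A, B and C. A pairing of NY and DZ would thus rest on the data alone, and the main fit used none.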

Additional observations from a re-analysis of the deposited data

How the results depend on the processing

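The 6 differences of miR-3960 were recomputed under 19 alternatives each, 113 values in all, since its row was filtered out for PLL against DZ when those libraries were fitted alone. Of these, 110 stayed within the spread between replicates. On the log2 scale that spread was 0.25 for aFM and NY, 0.94 for aFM and DZ and 0.93 for NY and DZ. It was 1.29 for aFM and PLL, 1.28 for NY and PLL and 1.57 for PLL and DZ. For the pairs with PLL, a move of more than 1 on the log2 scale could thus count as within the spread. In the fit over all rows aFM against NY moved to 2.04, aFM against PLL to 3.15, NY against PLL to 1.10 (within the spread) and PLL against DZ to 0.87, the opposite sign. Leaving out libraries gave 3.66 to 4.74 in aFM against DZ, 2.64 to 2.80 in aFM against NY, 4.25 to 5.59 in aFM against PLL, 0.90 to 1.98 in NY against DZ, 1.49 to 2.83 in NY against PLL and -1.41 to -0.059 in PLL against DZ. Mean levels as CPM of all rows were 708 in aFM, 162 in NY and 38.4 in DZ; without TMM or with RLE factors they moved less than the spread.

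Counts of called miRNAs were less stable, and aFM against DZ had 16 or fewer without any single library other than PLL replicate A (26). aFM against DZ had 25 calls (12 higher, 13 lower), 16 with RLE factors (12 and 4), 8 with library totals (7 and 1), 7 over all rows (4 and 3), 15 with no filter and 5 to 26 with a library left out. NY against DZ had 1 call, 7 with no filter, 6 with DESeq2 and 1 to 2 with a library left out. PLL against DZ had 5 (1 and 4), 2 with library totals (1 and 1), 58 over all rows (58 and 0), 17 with no filter, 20 with DESeq2, 1 with the 2 groups alone and 4 to 17 with a library left out. aFM against NY had 5 (4 and 1), 9 over all rows (2 and 7), 11 with no filter, 15 with DESeq2, 29 with the 2 groups alone and 1 to 12 with a library left out; with RLE factors or library totals it had 4 and 0. aFM against PLL had 12 (4 and 8), 84 over all rows (2 and 82), 25 with DESeq2 and 4 to 20 with a library left out; with RLE factors it had 4 and 4. For miR-143-3p the fit over all rows gave -0.80 in aFM against PLL and 0.24 in PLL against DZ. The cause was not tested.

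With the replicate letters as a block, the counts were 10 in aFM against DZ, 3 in PLL against DZ and 2 in aFM against NY, and in NY against DZ, where the data met the pairing criterion, it stayed at 1. The blocked log2 fold changes of miR-3960 were 4.16 in aFM against DZ and 1.47 in NY against DZ. Few reads of miR-3960 limit its level most in PLL and DZ, with 17 and 14 in all, although PLL had the most annotated counts of the 4 groups.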
